A study of Rattus norvegicus with 4 samples.

Results

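Genes whose symbols begin with Mapk, Map2k, Map3k, Map4k, Prkc, Camk, Dusp, Ptpn, Ptpr, Ppp1, Ppp2 or Ppp3, that is the MAP kinases, protein kinase C, calcium/calmodulin kinases and the main protein phosphatase families, were followed in the myometrium, the uterine muscle layer, of the rat. The rule took every probe set with 1 such symbol, without Dusp1, and gave 176 probe sets of 99 genes among 4736 genes on the array. The prefixes also take in partners that are not enzymes, such as the scaffold Mapk8ip1 or the inhibitor Camk2n1. The kinases ERK1 and ERK2 were not among the members and were not analysed here.

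Female rats aged 60 days had lost their ovaries a week earlier in all groups. They received estradiol benzoate, a long-acting form of the hormone, under the skin at 10 µg per kg, or vehicle, and the myometrium was taken after 6 or 24 h. Each of the 4 groups (6 h control, 6 h estradiol, 24 h control, 24 h estradiol) was 1 Affymetrix array carrying RNA pooled from 6 animals. There is thus no replicate error, differences within a time compare 2 pools, and fewer cells of a type cannot be told from less RNA per cell.

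The arrays at 6 h went against their labels in 4 genes that estrogen is known to induce in the uterus. For Igf1 the 24 h signals were 665 without and 5182 with estradiol, whereas the 6 h signals were 7872 under the control label and 704 under the estradiol label. Pgr, S100g and Hsd11b2 were likewise high on the 24 h estradiol and 6 h control arrays. Directions at 6 h are therefore those of the labels, given for the arrays as labelled. Both arrays of a time were scanned on 1 day, so effects of time and of scan day cannot be told apart, and the wash record of the 24 h control array held a communication error. The 7 smooth muscle markers found, among them Acta2 and Myh11, were above the signal floor on all 4 arrays, and none differed 2-fold at either time.

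MAP kinases are the last step of a relay in which upstream kinases phosphorylate a MAP kinase kinase, which phosphorylates the MAP kinase. Calcium and diacylglycerol act in parallel through calmodulin-dependent kinases and protein kinase C. Phosphatases undo these steps: dual-specificity phosphatases act on the MAP kinases themselves, tyrosine phosphatases on receptors and their adaptors, and protein phosphatases 1, 2A and calcineurin (here Ppp1, Ppp2 and Ppp3) on serine and threonine. In uterine muscle the balance of myosin light chain kinase and of a protein phosphatase 1 complex sets the force at a given calcium level.

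Of the 99 genes 77 were measured, that is above the signal floor (each array's 40th percentile, 89.5 to 108 signal units) on at least 1 array. They were 77.8% of the members, against 76.4% of all genes. On all 4 arrays 62 were above the floor, and 15 on only 1 to 3 arrays, where a difference is partly a consequence of passing the floor. Each gene was read from the probe set with its highest mean signal, also for ranges given below, and counted as different at 2-fold. At 24 h, 6 members were higher with estradiol against a background of 8.68% of all measured genes, and 4 were lower against 8.04%. These counts are 7.79% and 5.19% of the 77, so neither share exceeded the background. At 6 h, 5 members were higher on the array labelled estradiol against a background of 6.47%, and 7 were lower against 5.08%, or 6.49% and 9.09% of the members. In all, 18 of 77 were past 2-fold at either time, 23.4% against 24.2% of all measured genes. The median log2 difference of the members was -0.25 at 24 h and 0.00 at 6 h, against -0.17 and -0.01 over all genes, leaving out genes at the floor on both arrays. In the limma fit of both times, which has 1 residual degree of freedom and takes the labels as given, 0 of 132 member probe sets passed an adjusted p of 0.05, as did 0% of all 6157. Its smallest adjusted p for a member was 0.999, and at an unadjusted p under 0.05 there were 0 members and 104 probe sets in all (1.69%). Opposite differences at 6 and 24 h offset each other in its single treatment effect. Igf1, for example, had log2 differences of 2.96 at 24 h and -3.48 at 6 h. The fit therefore could not call genes of that kind, and no conclusion is drawn from its counts.

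**Figure D1:**
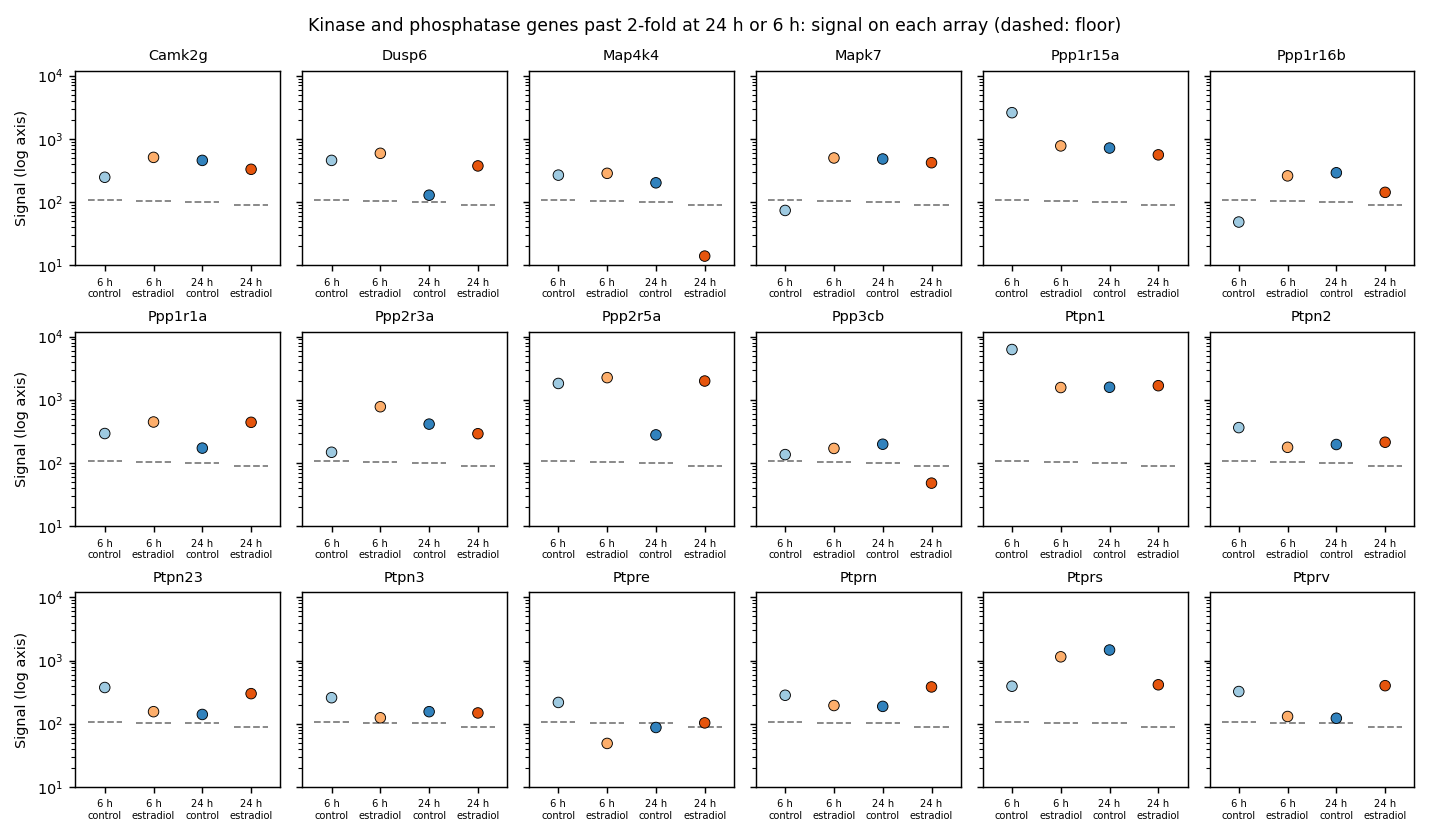
Signal on each of the 4 arrays (log axis) for the 18 genes past 2-fold at 24 h or 6 h, 1 point per array and gene. Dashes mark each array's floor; Ptpn1 and Ppp1r15a stand out on the 6 h control array, Ppp2r5a is low on the 24 h control array, and Ptprv and Ptpn23 are high on the 6 h control and 24 h estradiol arrays.

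Among 11 MAP kinase genes and partners 7 were measured, and 0 passed 2-fold at 24 h. Over all measured genes 8.68% were higher and 8.04% lower at 24 h, and 6.47% and 5.08% at 6 h. The same shares apply to the counts of the classes that follow. Mapk7, which encodes the large MAP kinase ERK5, read 73.4 on the 6 h control array, 497 on the array labelled estradiol at 6 h, 479 on the 24 h control array and 418 on the 24 h estradiol array. The 6 h control array was the low one, under its floor, and the other 3 lay close together. At 6 h Mapk7 was thus higher with the estradiol label by at least 4.59-fold, and at 24 h it was 1.15-fold lower with estradiol. The other probe set read 183, 235, 300 and 271 in the same order and was only 1.28-fold higher at 6 h. The 2 probe sets thus share an order of the 6 h arrays but not the size of the difference.

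Mapk14, which encodes p38 alpha, read 1804, 2230, 2686 and 1847 (6 h control, 6 h estradiol label, 24 h control, 24 h estradiol, the order used from here on). That is 1.24-fold higher at 6 h and 1.45-fold lower at 24 h, both under 2-fold, and 5 of its 6 probe sets were lower at 24 h. Mapkapk3, a kinase that p38 activates, had the opposite order, with 941, 477, 479 and 832. It was 1.97-fold lower with the estradiol label at 6 h and 1.74-fold higher with estradiol at 24 h. A second Mapkapk3 probe set, at 886, 423, 533 and 677, passed the rule at 6 h with 2.09-fold, and all 4 of its probe sets had the same direction at each time. Mapkapk2, the related kinase, stayed between 611 and 831. Mapk6 read 425, 361, 597 and 664, Mapk9, which encodes the stress kinase JNK2, lay between 169 and 226, and Mapk4 between 110 and 184. Mapk8, Mapk12, Mapk8ip1 and Mapk8ip2 were under the floor on all 4 arrays.

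Of 11 genes of MAP kinase kinases and kinases above them 10 were measured, and 1 passed the rule. Map4k4 read 266, 284, 201 and 13.9, so the 24 h estradiol array was under its floor and the fold at 24 h, at least 2.24, is a bound. Map2k2, the ERK kinase MEK2, read 1840, 1213, 1490 and 2728. It was 1.83-fold higher with estradiol at 24 h and 1.52-fold lower with the label at 6 h. Its other 2 probe sets had the same directions, 2.04-fold and 1.42-fold higher at 24 h and 1.58-fold and 1.36-fold lower at 6 h. Map2k1, the sister kinase MEK1, read 818, 762, 965 and 1172, and its 3 probe sets did not share a direction at either time. At 6 h the brightest was 1.07-fold lower with the label, and the others were 1.28-fold and 2.06-fold higher, the last past the rule. For Map3k3, Map2k6 and Map4k1 the directions at both times were the reverse of Map2k2, without passing the rule. Map3k3 read 148, 251, 350 and 194, Map2k6, which activates p38, 275, 475, 475 and 279, and Map4k1 263, 379, 323 and 189. Map3k1, with 1810, 2108, 2090 and 1494, was 1.40-fold lower at 24 h, and its other 2 probe sets were lower too. Map3k12 read 1644, 1311, 966 and 812, and Map3k9 377, 238, 131 and 163. Both arrays at 24 h were below both at 6 h for these 2 genes, and the pairs were scanned on different days. Map2k5, which acts on ERK5, lay between 500 and 673, and Map3k8 was under the floor on all 4 arrays.

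The protein kinase C genes held 5 measured of 6, and 0 passed 2-fold at either time. Prkcd, a calcium-independent isoform, read 468, 608, 629 and 380 and was 1.65-fold lower with estradiol at 24 h, and 1.83-fold on its other probe set. Prkce, another isoform activated by diacylglycerol, read 319, 267, 249 and 275. Its first 3 probe sets were 1.06-fold to 1.14-fold higher with estradiol at 24 h, and the fourth was 1.18-fold lower. Prkch lay between 369 and 455, Prkcz between 117 and 196 and Prkcb between 157 and 227. Prkca, a calcium-dependent isoform, was under the floor on all 4 arrays, with signals of 9.12 to 27.

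Of 12 calcium/calmodulin kinase genes 7 were measured. All 7 were lower with estradiol at 24 h, by log2 differences between -0.75 and -0.20, and 0 passed the rule. Over all genes the median was -0.17 and the quartiles -0.56 and 0.29. The share of all genes lower by any amount was not counted, and the difference of Camk2n1 is a bound. Camk2d, the kinase subunit of smooth and heart muscle, read 879, 1413, 1310 and 1143. Its next 2 probe sets by signal were 2.54-fold lower and at least 2.15-fold lower at 24 h, but the brightest only 1.15-fold. Camk2g, another smooth muscle subunit, read 246, 508, 455 and 329 and passed the rule at 6 h with 2.07-fold. Only this 1 of its 3 probe sets was above the floor. Camk1 read 491, 549, 618 and 366. Camk2b read 319, 422, 391 and 282. Camkk1, a kinase that activates other calmodulin kinases, read 282, 515, 622 and 392. These were lowest on the 6 h control or 24 h estradiol array. Camkk2 read 247, 145, 122 and 89.9, highest on the 6 h control array. The inhibitor Camk2n1 was above the floor with the estradiol label at 6 h (139) and in the 24 h control (109) and under it on the other 2. Camk1g, Camk2a, Camk2n2, Camk4 and Camkv were under the floor throughout.

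**Figure D2:**
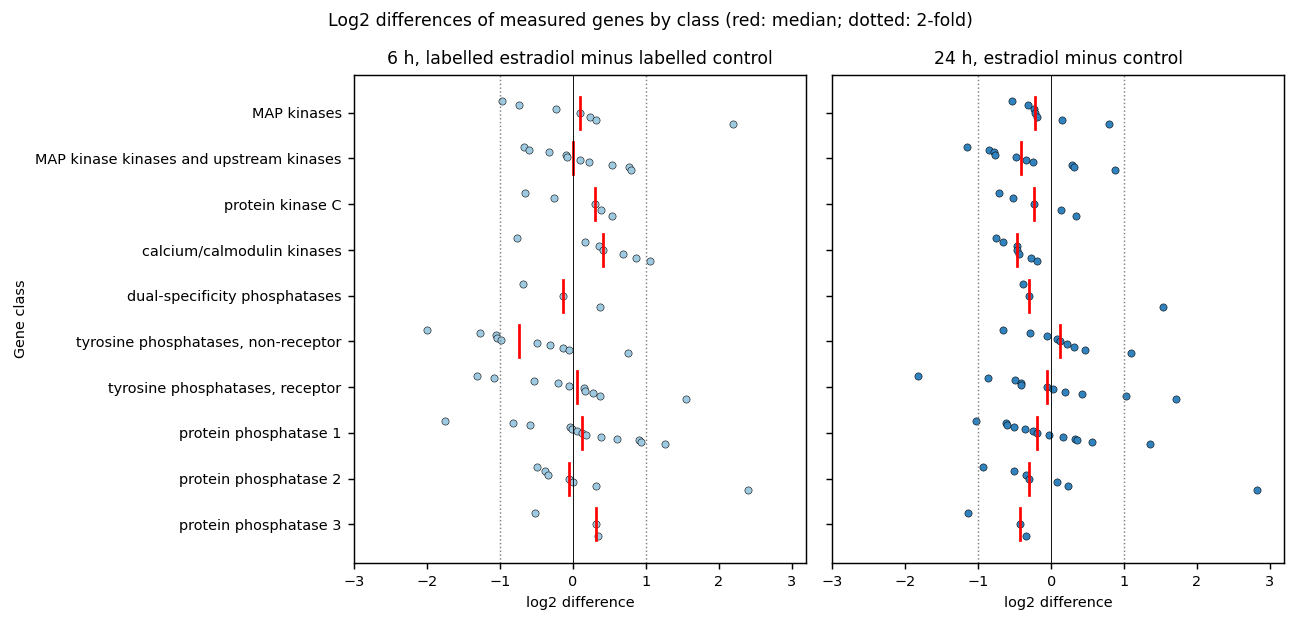
Log2 differences (horizontal axis) of the measured genes in 10 classes (vertical axis), at 6 h on the left and 24 h on the right, 1 point per gene, with the class median in red and dotted lines at 2-fold. Genes at the floor on both arrays are left out; the median of non-receptor tyrosine phosphatases is -0.74 at 6 h and that of calcium/calmodulin kinases -0.47 at 24 h.

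Dual-specificity phosphatases remove phosphate from MAP kinases and are themselves often induced by the pathway. Dusp6, which acts on ERK, read 455, 589, 128 and 372 and was 2.90-fold higher with estradiol at 24 h. The 24 h control array was the low one. The other probe set of Dusp6, with 117, 242, 314 and 149, went the opposite way at 24 h, 2.11-fold lower. At 6 h both were higher with the label, the brightest by 1.29-fold and the other by 2.08-fold. The probe sets of Dusp6 thus disagree past 2-fold at 24 h and give it no settled direction at that time. Dusp5 read 415, 257, 271 and 207, highest on the 6 h control array, and was 1.62-fold lower with the label at 6 h. Dusp7 lay between 84.1 and 128, and Dusp4 was under the floor on all 4 arrays.

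The non-receptor tyrosine phosphatases had 11 of 11 genes measured, and 4 of them were at least 2-fold lower on the array labelled estradiol at 6 h, beside 5.08% of all measured genes. Ptpn1, which encodes PTP1B, the phosphatase of the insulin and leptin receptor pathways, read 6221, 1556, 1571 and 1664. The 6 h control array stood alone, and the other 3 lay between 1556 and 1664. Ptpn1 was 4-fold lower with the label at 6 h and 1.06-fold higher with estradiol at 24 h. Of its other 4 probe sets 3 were 2.62-fold to 3.14-fold lower at 6 h, and the fourth was 1.14-fold higher. At 24 h the probe sets split, since 2 were higher by 2.63-fold and 2.02-fold and 2 lower by 1.12-fold and 1.40-fold.

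Ptpn2, which encodes the close relative TC-PTP, read 361, 176, 195 and 212, and Ptpn3 258, 124, 155 and 148. They were 2.05-fold and 2.07-fold lower with the label at 6 h and differed little at 24 h. Again the 6 h control array was highest, and the other probe set of each was under the floor. Ptpn18 read 310, 156, 205 and 238, just under the rule at 1.98-fold. Ptpn23, which sorts receptors in endosomes, read 374, 155, 140 and 299. It was 2.41-fold lower with the label at 6 h and 2.14-fold higher with estradiol at 24 h, so the 6 h control and 24 h estradiol arrays were the high ones. On another probe set Ptpn23, at 188, 153, 164 and 27.1, was lower at both times. Ptpn21 read 348, 585, 203 and 282 and was the only one of the 10 genes with a difference at 6 h to be higher with the label. Ptpn12 lay between 183 and 251. Ptpn11, which encodes SHP2, a positive step between receptors and Ras, was above the floor on the 6 h control array alone in its brightest of 5 probe sets, as was Ptpn5. Another probe set of Ptpn11 was above the floor with the estradiol label at 6 h (123) and in the 24 h control (120) and under it on the other 2 arrays. Ptpn6 and Ptpn7, phosphatases of blood cells, had low signals. The brightest probe set of Ptpn6 was above the floor on both 24 h arrays, at most at 147, and its other one on the 6 h control array alone, at 176. Ptpn7 was above the floor on 2 arrays, at most at 142.

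Of 18 receptor tyrosine phosphatases 11 were measured. Ptprs, a receptor for proteoglycans also called PTP sigma, read 392, 1145, 1467 and 413 on its brightest probe set. The 24 h control array and the one labelled estradiol at 6 h were high and the other 2 low, so Ptprs was 2.92-fold higher at 6 h and 3.55-fold lower at 24 h. A second probe set had the same order at 384, 731, 950 and 460. One more had the reverse, 387, 140, 150 and 420, 2.76-fold lower at 6 h and 2.80-fold higher at 24 h. Ptprs is therefore without a settled direction at both times, as Dusp6 is at 24 h. With the mean of its probe sets the differences were 0.23 at 6 h and -0.39 at 24 h on the log2 scale.

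Ptprv, a receptor phosphatase first described in bone cells, had 1 probe set with 323, 130, 122 and 400. It was high on the 6 h control and 24 h estradiol arrays, 2.48-fold lower with the label at 6 h and 3.27-fold higher with estradiol at 24 h. Ptprn, a phosphatase relative of secretory granules, read 282, 194, 188 and 382 and was 2.04-fold higher at 24 h. Ptpre read 217, 48.7, 87.1 and 103, at least 2.12-fold lower with the label at 6 h. It was thus clearly above the floor on the 6 h control array, just above it on the 24 h estradiol array, and under it on the other 2. Most epithelial markers moved in the same directions as Ptprv and the brightest probe set of Ptpn23. At 24 h 5 of 6 were at least 2-fold higher, and at 6 h 3 of 6 were lower. Summed signals were 1773, 652, 1157 and 3605 on the 4 arrays. Muc1 went the other way at 24 h, 1.46-fold lower, and Epcam was under the floor on both arrays at 6 h. All 6 epithelial markers were above the floor on at least 1 array. Of 6 endometrial stroma markers 2 were lower at 24 h, Mme and Vcam1, and 0 passed 2-fold at 6 h. The part of these markers in these results was not tested.

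Ptprc, the leukocyte receptor phosphatase CD45, read 160, 207, 163 and 57.8, under the floor on the 24 h estradiol array and at least 1.82-fold lower there. Its other 2 probe sets were under the floor throughout. Of 11 leukocyte markers, Ptprc included, 3 were lower and 2 higher at 24 h, and summed signals were 9008, 6638, 8119 and 6316. Of the markers Itgam alone was under the floor on all 4 arrays. Their part in the level of Ptprc, Ptpn6 or Ptpn7 was not tested. Among the other receptor phosphatases Ptprf, the receptor LAR, lay between 718 and 855, Ptpra between 407 and 571, Ptpro between 236 and 280 and Ptprm between 142 and 196. Ptprj was above the floor on 3 arrays, at most at 160, and Ptprg on 1. Ptprd, Ptprh, Ptprn2, Ptprq, Ptprr, Ptpru and Ptprz1 were under the floor on all 4. Of 7 nerve markers, the tissue where several of these genes are best known, Uchl1 and Snap25 were above the floor on all 4 arrays, Nefl and Gap43 on 2 each, and Nefm, Syt1 and Mbp on none, with summed signals of 940, 492, 957 and 519.

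**Figure D3:**
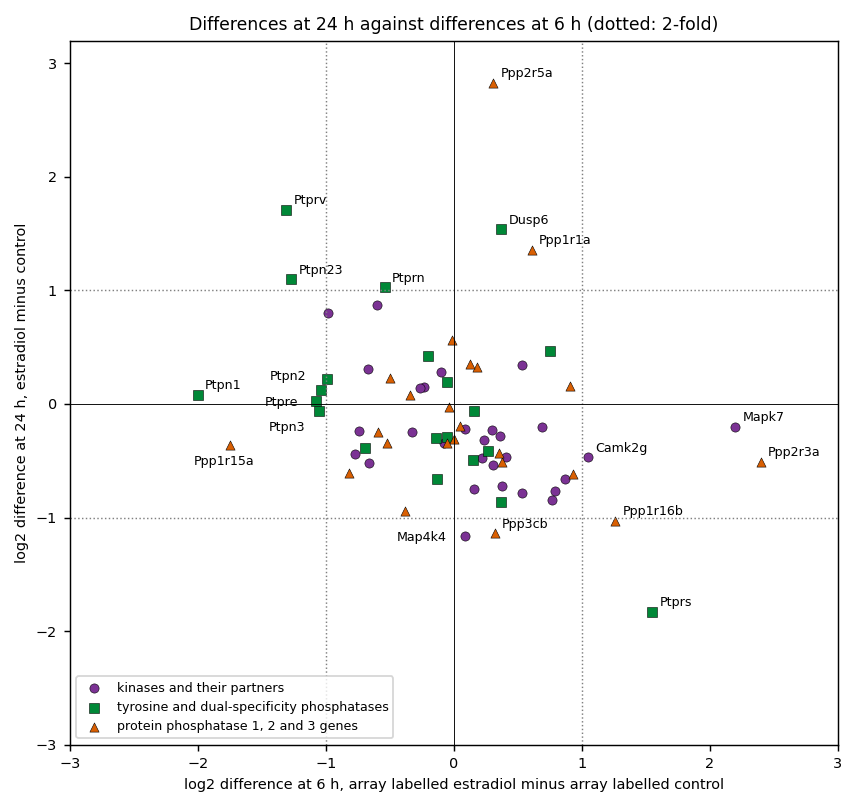
Log2 difference at 24 h (vertical axis) against that at 6 h (horizontal axis) for the 73 members with a difference at both times, by kind of gene, with dotted lines at 2-fold and the 18 genes past it named. Ptprv and Ptpn23 lie in the upper left corner and Ptprs and Ppp1r16b in the lower right, and no gene lies past 2-fold in the same direction at both times.

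The 4 genes past 2-fold at both times were Ptprs, Ptprv, Ptpn23 and Ppp1r16b, and on their brightest probe sets all 4 had opposite directions at 6 and 24 h. Among all measured genes 3.37% were past 2-fold in opposite directions and 0.746% in the same direction, against 4 and 0 of the 77 members. Opposite and same follow the 6 h labels, and with those labels turned the 4 genes and the 3.37% would be in the same direction and the 0.746% in opposite ones. The comparisons at 6 and 24 h share no array.

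Protein phosphatase 1 is a catalytic subunit held by one of many regulatory subunits. Its 3 catalytic genes differed little at either time. Ppp1cb, the isoform of the myosin phosphatase, read 4094, 3978, 6056 and 5942, and Ppp1ca and Ppp1cc were 1.26-fold and 1.28-fold higher with estradiol at 24 h. Ppp1r12a, the myosin-binding subunit that brings the enzyme to the contractile filaments, read 1596, 2078, 1442 and 1015 and was 1.42-fold lower at 24 h. Its other probe sets were 1.75-fold and 2.20-fold lower, and all 3 were higher with the label at 6 h, by 1.30-fold to 1.95-fold.

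Ppp1r15a, also called GADD34, which restarts translation after stress, read 2591, 772, 714 and 557. As with Ptpn1, the 6 h control array stood alone, and the gene was 3.36-fold lower with the label at 6 h. Its second probe set, at 669, 220, 257 and 180, was 3.04-fold lower. Ppp1r16b, a regulatory subunit of endothelial cells, read 48.1, 259, 290 and 142. It was at least 2.39-fold higher with the label at 6 h and 2.04-fold lower with estradiol at 24 h, but under 2-fold at 24 h with scaling to a common median. Of 6 endothelial markers 1 was lower at 24 h and 1 lower at 6 h, and summed signals were 1546, 1278, 1603 and 873. Their part in the level of Ppp1r16b was not tested.

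Ppp1r1a, inhibitor 1 of the phosphatase, read 291, 443, 171 and 438 and was 2.56-fold higher at 24 h, with the 24 h control array lowest. On its dimmer probe set it was only 1.13-fold higher. Ppp1r2, inhibitor 2, read 769, 435, 748 and 490, that is 1.77-fold lower at 6 h and 1.53-fold lower at 24 h. Ppp1r10, a nuclear subunit, read 1070, 709, 650 and 547. Ppp1r9b lay between 835 and 1218 and Ppp1r13l between 202 and 357. Ppp1r21 read 316, 602, 459 and 298 and Ppp1r36 105, 204, 196 and 219. Neither passed the rule. Ppp1r3b and Ppp1r9a were under the floor on all 4 arrays.

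All 7 protein phosphatase 2A genes were measured, and the 2 past the rule were regulatory subunits. Ppp2r5a, a subunit of the B56 family, read 1805, 2232, 277 and 1973. The 24 h control array was the low one, and Ppp2r5a was 7.12-fold higher with estradiol at 24 h, but the 24 h control was itself 6.51-fold below the 6 h control. It has 1 probe set. The brightest probe sets of Dusp6 and Ppp1r1a were likewise lowest on that array, the one with the communication error in its record, and the part of that error in these results was not tested. Their other probe sets were not: that of Dusp6 was highest there, and that of Ppp1r1a was lowest on the 6 h control array. Ppp2r3a, a calcium-binding subunit, read 147, 773, 410 and 289. Here the 6 h control array was the low one, and Ppp2r3a was 5.27-fold higher with the label at 6 h and 1.42-fold lower with estradiol at 24 h. Its second probe set, at 178, 576, 459 and 294, was 3.23-fold higher at 6 h. The scaffold Ppp2r1a lay between 2162 and 2678, but its second probe set read 1904, 2069, 1012 and 1983 and was 1.96-fold higher at 24 h, lowest on the 24 h control array. On their brightest probe sets, the subunit Ppp2r2a lay between 1829 and 2508, and the catalytic Ppp2cb read 1674, 1180, 1054 and 1235. Ppp2r2c was 1.92-fold lower with estradiol at 24 h, at 115 against 221, and Ppp2r2b lay between 115 and 167.

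Calcineurin, which calcium and calmodulin switch on, had 3 of 4 genes measured. Ppp3ca, a catalytic subunit, read 538, 684, 548 and 406 and was 1.35-fold lower at 24 h. Ppp3cb, another, read 135, 169, 197 and 47.7, at least 2.20-fold lower because the 24 h estradiol array was under its floor. Under scaling to a common median Ppp3cb was under the rule. The calcium-binding subunit Ppp3r1 lay between 272 and 425, and Ppp3r2 was under the floor on all 4 arrays.

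**Figure D4:**
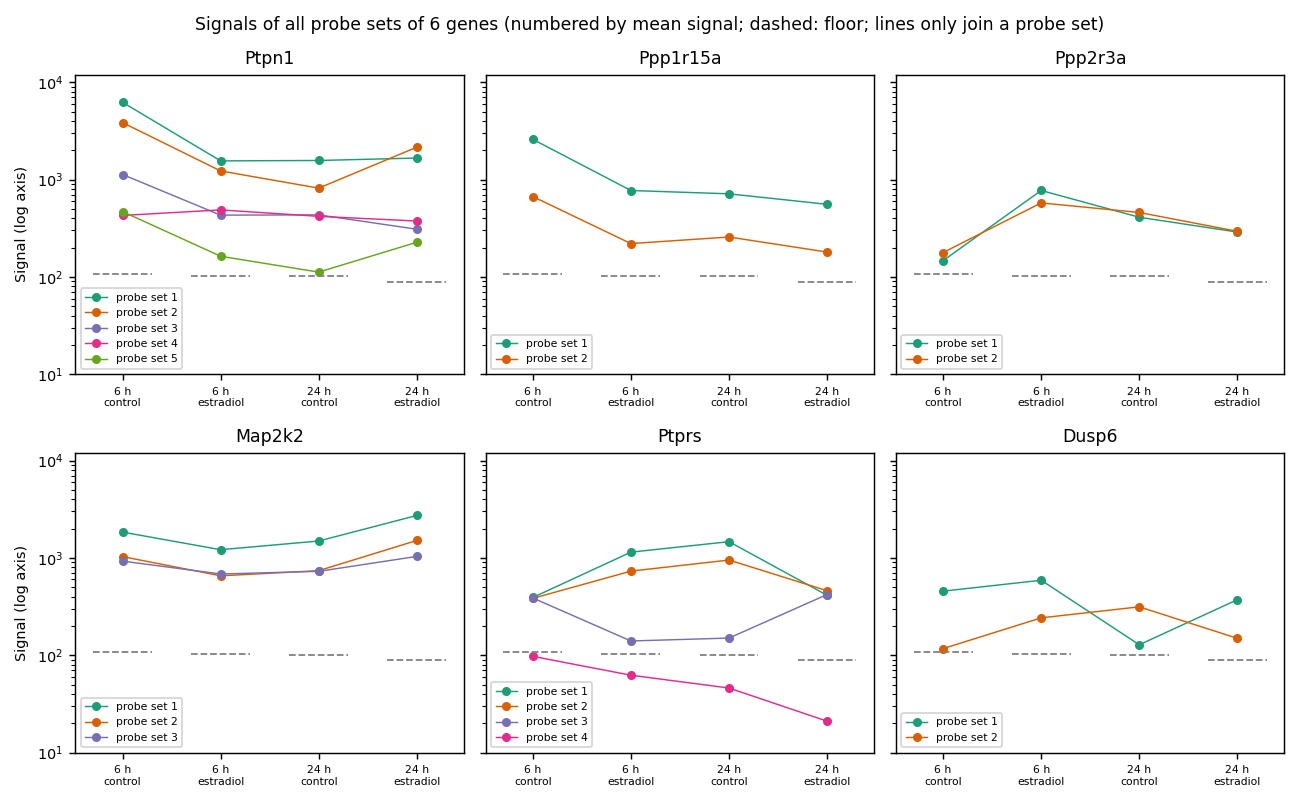
Signals (log axis) of all probe sets of 6 genes on the 4 arrays, numbered by mean signal, with dashes at the floors; lines join the points of a probe set and show no time course. The probe sets of Ppp1r15a, Ppp2r3a and Map2k2 share their order at each time, 4 of 5 of Ptpn1 are highest on the 6 h control array, and those of Ptprs and Dusp6 cross.

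Between the 2 controls, 6 members were at least 2-fold higher at 24 h than at 6 h and 9 lower, against backgrounds of 7.63% and 9.62%. The lower ones included Ppp2r5a, Ptpn1 at 3.96-fold, Ppp1r15a at 3.63-fold and Dusp6 at 3.55-fold. The higher ones included Mapk7, Ptprs and Ppp2r3a. Another probe set of Dusp6 was past 2-fold higher, with a log2 difference of 1.43, and another of Ptprs past 2-fold lower, with -1.37. These comparisons use the arrays of the others, so they carry no independent support. Against the other control array, a choice made after the data were seen, 0 of the 6 members stayed higher at 24 h and 1 of the 4 lower, Map4k4. At 6 h 0 of the 7 lower ones and 0 of the 5 higher ones stayed.

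Promoters are shown for Ptpn1, Ppp1r15a, Ptprv and Ptprs, the genes past 2-fold whose promoters hold either of 2 short motifs, chosen after the matches were seen. The other genes past 2-fold with a RefSeq promoter had no match to either motif in this window. The 250 bases before the start are from RefSeq, build GRCr8, 5′ to 3′ on the gene's strand, with AGGTCA, a half-site that estrogen receptors and their relatives bind, and TGACGTCA, the cyclic AMP response element, in capitals on either strand.
Ptpn1 (chr3:177057483-177057732, plus strand): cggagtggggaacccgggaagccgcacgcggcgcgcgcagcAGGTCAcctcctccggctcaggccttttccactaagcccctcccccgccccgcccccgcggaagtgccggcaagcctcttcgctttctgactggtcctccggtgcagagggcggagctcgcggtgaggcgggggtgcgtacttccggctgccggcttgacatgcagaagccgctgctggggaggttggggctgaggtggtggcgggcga
Ppp1r15a (chr1:105139597-105139846, minus strand): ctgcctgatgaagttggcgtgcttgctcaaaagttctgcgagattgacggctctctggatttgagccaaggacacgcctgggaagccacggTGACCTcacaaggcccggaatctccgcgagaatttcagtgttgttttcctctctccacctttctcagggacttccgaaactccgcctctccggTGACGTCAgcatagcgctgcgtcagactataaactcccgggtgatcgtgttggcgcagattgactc
Ptprv (chr13:49120122-49120371, minus strand): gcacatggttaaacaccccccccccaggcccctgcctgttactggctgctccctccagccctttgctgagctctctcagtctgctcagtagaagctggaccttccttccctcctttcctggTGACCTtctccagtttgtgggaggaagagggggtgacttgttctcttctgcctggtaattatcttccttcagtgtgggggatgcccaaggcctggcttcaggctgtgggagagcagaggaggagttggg
Ptprs (chr9:1394092-1394341, minus strand): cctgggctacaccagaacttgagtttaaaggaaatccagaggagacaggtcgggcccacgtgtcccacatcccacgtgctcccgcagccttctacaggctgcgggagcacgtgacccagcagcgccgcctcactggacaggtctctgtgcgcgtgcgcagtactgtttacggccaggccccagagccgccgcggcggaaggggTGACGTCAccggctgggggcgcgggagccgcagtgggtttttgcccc
The half-site lies 209 bases before the start in Ptpn1, 159 in Ppp1r15a and 129 in Ptprv. The cyclic AMP element lies 66 bases before the start in Ppp1r15a and 47 in Ptprs. RefSeq promoters were found for 84 of the 99 members and for 16 of the 18 genes past 2-fold, without Map4k4 and Ppp1r1a. AGGTCA was in 3 of the 16, in 13.1% of the 84 and in 13.7% of 27457 promoters. TGACGTCA was in 2 of the 16, in 3.57% of the 84 and in 1.7% of all. The AP-1 motif TGANTCA was in 0 of the 16 and 6.36% of all, and the full palindromic estrogen response element in 0 of the 84 and 0.0219% of all. The full element can overlap a half-site. A match describes these letters and shows no binding.

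Other genes of these pathways were counted from lists. Over all measured genes the shares were 8.68% higher and 8.04% lower at 24 h, and 6.47% higher and 5.08% lower at 6 h. Of 7 measured genes of Ras, Raf and their adaptors, 1 was lower at 24 h, Nf1, which switches Ras off, at 2.38-fold (3403, 2012, 2033 and 855), and 0 passed at 6 h. Of 9 measured substrates and targets of MAP kinases 1 was higher at 24 h, Junb, at least 5.19-fold (1333, 334, 25.8 and 523). At 6 h 4 were lower with the label, namely Junb, Myc, Fos and Egr1, which are growth-induced transcription factors, and Stmn1 was 2.09-fold higher. Of 16 measured calmodulin and calcium partners 4 were lower at 24 h: Marcks, a protein kinase C substrate, at 4.49-fold, Plcg2 at least 2.50-fold, Add3 at 2.06-fold and Plcg1 at 2.03-fold. At 6 h Itpr1, Plcb4 and Add3 were 3.74-fold, 2.34-fold and 2.18-fold higher with the label, and 0 were lower. Of 5 measured genes of the RhoA pathway 1 was higher at 24 h, Rhoa, which raises calcium sensitivity of contraction, at 2.35-fold (1195, 648, 484 and 1138).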

How the data were processed

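Total RNA from myometrium was measured on 4 Affymetrix RG_U34A arrays, 1 per group. Intensities were deposited by the authors as MAS5 signals, per the submitters' processing notes. Its version is not given in the sources used here. Each deposited column had a 2% trimmed mean of 500. Of 8799 probe sets, 59 were controls and were left out. Median signals were 144 to 169, and the number of arrays limits the precision. Spiked-in transcripts were 1.35-fold brighter with estradiol at 24 h and 2.32-fold brighter at 24 h than at 6 h.

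Symbols came from a platform table (7018 probe sets with 1, 308 with several, 1473 with none), and all 99 members matched RefSeq with 0 symbols changed. Signals below the 40th percentile of their array were set to it before log2 was taken. A difference counted at a log2 of 1 with the brighter array above its floor, and a dimmer array at its floor makes the fold a bound ("at least"). The limma fit (version 3.58.1, R 4.3.3) used treatment and time over all probe sets above a floor, with Benjamini-Hochberg adjustment. Both steps were tested on simulated data in which changed probe sets were raised alike on both estradiol arrays. That setting does not cover opposite differences at the early and late time, so it cannot tell how the fit treats them. Members past 2-fold were named with 4 signals, and others by a fixed list or range. The members and lists were chosen with earlier results of these data known. Alternatives were 3 scalings, other floors, a pseudocount of 32, other fold rules, other controls and other uses of probe sets.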

Additional observations from a re-analysis of the deposited data

Results flagged for a closer look

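On their brightest probe sets Ptprs, Ptprv, Ptpn23 and Ppp1r16b were past 2-fold in opposite directions at 24 h and 6 h. They were 4 of the 77 measured members, beside 3.37% of all measured genes. Each side was 1 array, and the difference between the times was not tested. The log2 differences at 24 h and then at 6 h were -1.83 and 1.55 for Ptprs, 1.71 and -1.31 for Ptprv, 1.10 and -1.27 for Ptpn23, and -1.03 and 1.26 for Ppp1r16b. Another probe set of Ptprs had the reverse, 1.49 and -1.46, and the other one of Ptpn23 was lower at both times, with -0.88 and -0.29. With scaling to a common median Ppp1r16b was under the rule at 24 h, with -0.89. The directions at 6 h rest on labels that 4 estrogen targets contradict. No group held enough samples to look for a sample far from the others.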

How the results depend on the processing

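No paired analysis was possible because each group is 1 array and the labels carry no replicate numbers, so no array could be left out within a group either. Of 22 differences of single genes past 2-fold, 20 kept the call under all 3 scalings, of which values as deposited could move no call. Under all 9 settings other than the fold rules and the other control array Ptpn1 and Ppp2r3a at 6 h kept it, as did Ppp2r5a at 24 h under the 8 it could be run for, since its 1 probe set ends in _s_at. Only these 3 of the 22 calls were kept in that way. Against the other control array all 3 were under the rule. Their log2 differences there were -0.01 for Ptpn1 and 0.92 for Ppp2r3a at 6 h, and 0.13 for Ppp2r5a at 24 h. Values as deposited changed no count, and could not, since each deposited column already had the trimmed mean of 500 used here. Scaling to a common median moved the median of all genes at 24 h from -0.17 to -0.03.

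The counts in the text were 6 higher and 4 lower at 24 h and 5 higher and 7 lower at 6 h. Under the other settings only members were counted, not all genes. The counts below therefore have no background and are not read against the shares given earlier. The 4 lower at 24 h became 2 with a common median or quantile normalization and 11 with a floor at the 20th percentile. Raising the floor to the 60th percentile gave, in the order above, 1, 1, 2 and 2. Under the 1.5-fold rule 15 were lower at 24 h, 13 higher and 17 lower at 6 h. The 3-fold rule left 2, 1, 2 and 2. Against the mean of both controls 2 were higher and 2 lower at 24 h, and 5 higher and 1 lower at 6 h. Of those 5 only 2 were among the calls of the text. A pseudocount of 32 gave 4, 6, 5 and 7 in the order above, of which 4, 3, 4 and 5 were among those calls. When the probe sets of a gene were averaged, 3 were higher at 24 h, 3 higher and 3 lower at 6 h. Against the other control array, a setting added after seeing the data, 2 were higher and 9 lower at 24 h and 0 lower at 6 h.

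Directions turned against the other control array for Dusp6 (-0.29), Ppp1r16b (0.39), Ptpn23 (-0.32) and Ptprs (0.08) at 24 h. At 6 h they turned for Ppp1r15a (0.11), Ppp1r16b (-0.16), Ptpn23 (0.15), Ptpre (0.02), Ptprs (-0.36) and Ptprv (0.09). These settings mix labels at 6 h that estrogen targets go against. Ptpn3 and Ptpre at 6 h read 0.04 with the 60th percentile floor, and Camk2g -0.08 without probe sets ending in _x_at or _s_at, values that are the log2 ratios of the floors. The cause of the other changes was not tested. The limma fit called 0 members in each of its settings, in all of which opposite differences at 6 and 24 h offset each other. Without the filter on dim probe sets 3 of 176 member probe sets had an unadjusted p under 0.05, as had 377 of all 8740.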
